A study of Homo sapiens with 2 samples.

Results

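Prefix incomplete models are defined as transcript models that share the 5′ splice junctions of an annotated transcript and lack its 3′ junctions. They are 1 subtype of the incomplete splice match (ISM) class of TALON, a program that matches long reads to known transcripts or opens new models for them. Of the 237608 models counted in this study, 488 were prefix ISM models with 3 or more reads in each of the 2 libraries, and they belonged to 302 genes. The models were chosen by these read counts in both libraries, so their levels and shares are a description, and the only tests below compare one library with the other. RNA came from GM12878, an established human line of B lymphocytes immortalised by Epstein-Barr virus, with no treatment given. There was 1 group of 2 libraries, replicate 1 with 1360368 reads and replicate 2 with 1510998, read as native RNA with the SQK-RNA002 direct RNA kit on FLO-MIN106D flow cells. Depletion was applied to the RNA before library preparation, of what is not said, and the labels do not say whether the replicates came from separate cultures. The B cell markers were present, from PAX5 at 39.7 and 46.3 CPM (reads scaled to a common library total) to CD74 at 7766 and 8088, whereas GATA1, HBG1, ALB and LYZ were at 0 reads, CD3E had 5 and 16 reads, and COL1A1 had 2 and 3.

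In a typical human gene, cleavage and polyadenylation set the 3′ end of the messenger RNA in the last exon. An upstream polyadenylation signal, often in an intron, can give a shorter RNA with the same 5′ exons; the switch of immunoglobulin heavy chains from the membrane to the secreted form in B lineage cells is the classic example. Direct RNA sequencing reads a strand from its 3′ end toward its 5′ end, so a read that stops early loses 5′ exons and gives a suffix model, whereas a prefix model needs a read that begins before the annotated 3′ end or runs on past a splice site. The counts do not show which of these RNAs were present in the cell as such.

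The table of counts gives each model's number of exons and its length in bases but no position. An end could therefore only be bounded, by setting the length of a model of n exons against the summed length of exons 1 to n of annotated transcripts with more than n exons (GENCODE release 29, GRCh38), which takes the 5′ end to be the annotated one. For 259 of the 488 models (53.1%) the length placed the end inside exon n of such a transcript, and for 74 of these it matched the last base of exon n exactly. Where several transcripts fitted, the one with the nearest end of exon n was taken, which favours close matches. The sequences that follow show where some of these ends would fall if the 5′ end is the annotated one. Any bases missing at the 5′ end would shift the end by as many, so ends named here and below are by length only. The 30 bases up to the bounded end are in capitals and the next 30 bases of the spliced annotated transcript in lower case. All sequences run 5′ to 3′ and lie within coding sequence. The first 5 are models whose length matched the end of exon n exactly, so that capitals meet lower case at an annotated splice junction.
TMSB4X, TMSB4X-204 exon 2, chrX:12976246-12976361, + strand: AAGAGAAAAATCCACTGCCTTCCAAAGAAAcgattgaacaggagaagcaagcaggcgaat
MKKS, MKKS-201 exon 3, chr20:10412530-10413931, - strand: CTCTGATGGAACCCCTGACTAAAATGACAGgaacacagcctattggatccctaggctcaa
NOP53, NOP53-201 exon 7, chr19:47754527-47754631, + strand: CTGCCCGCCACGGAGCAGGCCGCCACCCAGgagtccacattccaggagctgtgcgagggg
ANP32B, ANP32B-201 exon 5, chr9:98011271-98011389, + strand: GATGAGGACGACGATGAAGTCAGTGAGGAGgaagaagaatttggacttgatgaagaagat
CALR, CALR-201 exon 8, chr19:12943537-12943629, + strand: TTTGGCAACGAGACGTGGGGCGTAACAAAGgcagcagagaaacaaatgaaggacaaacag

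By length the next 5 end inside exon n, 28 bases before its end in RPL37, 18 in ANP32B, 14 in RPS19, 215 in NCL and 15 in CALR. They include the most abundant model placed inside an exon, that of RPL37. The NCL model, of 639 bases and 3 exons, was also within 32 bases of NCL-208. That is an annotated transcript with a retained intron, of 3 exons and 671 bases.
RPL37, RPL37-201 exon 3, chr5:40834181-40834265, - strand: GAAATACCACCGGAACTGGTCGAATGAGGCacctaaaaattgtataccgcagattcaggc
ANP32B, ANP32B-201 exon 4, chr9:98004964-98005153, + strand: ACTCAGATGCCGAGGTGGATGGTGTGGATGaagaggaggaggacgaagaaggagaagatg
RPS19, RPS19-202 exon 5, chr19:41869699-41869753, + strand: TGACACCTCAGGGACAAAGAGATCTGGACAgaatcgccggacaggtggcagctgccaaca
NCL, NCL-201 exon 3, chr2:231461540-231462017, - strand: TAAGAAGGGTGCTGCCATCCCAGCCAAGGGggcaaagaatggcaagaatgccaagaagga
CALR, CALR-201 exon 7, chr19:12940744-12940887, + strand: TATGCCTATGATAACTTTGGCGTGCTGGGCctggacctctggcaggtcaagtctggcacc

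Adenines were counted at these bounded ends. The next 30 bases held 12 adenines in TMSB4X, 9 in MKKS, 6 in NOP53, 13 in the 5-exon ANP32B model, 16 in the 8-exon CALR model, 11 in RPL37, 14 in the 4-exon ANP32B model, 8 in RPS19, 14 in NCL and 5 in the 7-exon CALR model. Over the 259 models, the highest number of adenines in any 20 bases from 20 before to 60 after the bounded end had a median of 8, and the median of the same measure over all positions of their own transcripts was also 8. In 117 models the end was above the median of its own transcript, in 81 below and in 61 equal. Of the 259, 17 reached 12 adenines in 20 bases.

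Prefix models were many but mostly seen once. The table held 14431 prefix models in 5259 genes, of which 10899 had a single read in all and 2287 had a read in both libraries. The 488 models took 9493 of the 18886 prefix reads of replicate 1 (50.3%) and 9643 of the 20471 of replicate 2 (47.1%). Of all reads they made up 0.698% in replicate 1 (Wilson 95% interval 0.684 to 0.712%) and 0.638% in replicate 2 (0.626 to 0.651%), a mean of 0.668% ± 0.0422 (SD, n = 2). These intervals, and all others below, cover counting error only. Just inside the rule, 141 models had 3 reads as their lower count, with a median length of 985 bases, and just outside it 305 prefix models had 2, with a median of 958 bases. At the upper end, 102 models had 10 or more reads in each library and 12 had 100 or more. The same minimum of 3 reads in each library kept 9473 suffix models, 331 models of both subtypes, 2185 of neither and 7731 known models.

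**Figure D1:**
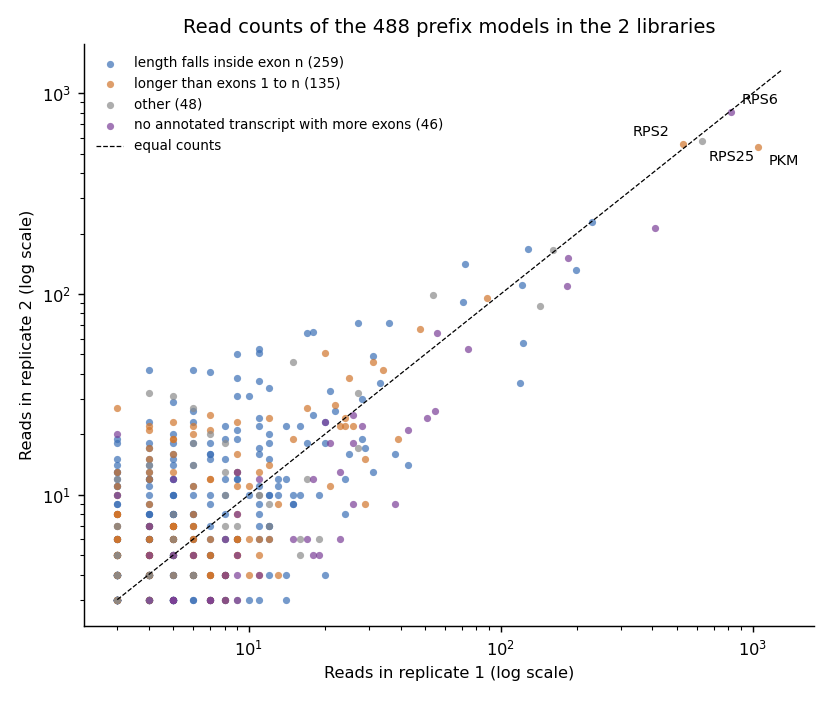
Reads of each of the 488 prefix models in replicate 1 (horizontal, log scale) and replicate 2 (vertical, log scale), coloured by how the model's length sits against the annotation; the dashed line marks equal counts. Most models lie near the minimum of 3 reads, with RPS6, RPS25, PKM and RPS2 far above the rest, and the scatter about the line is widest at low counts.

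The reads were unevenly spread over the models. The 10 models with the highest lower count held 45.7% of the models' reads in replicate 1 and 36.9% in replicate 2. RPS6, a protein of the small ribosomal subunit (chr9:19375715-19380254), led with a 6-exon model of 826 bases that had 819 and 811 reads, 11.4% (10.6 to 12.1%) and 9.31% (8.72 to 9.94%) of the reads of the gene. RPS25, of the same subunit (chr11:119015712-119018691), followed with a 4-exon model of 543 bases and 628 and 581 reads, 20.9% and 18.4% of its gene. PKM, the pyruvate kinase of glycolysis (chr15:72199029-72231822), had an 11-exon model of 2290 bases with 1052 and 541 reads, 31.2% and 14.4% of its gene. RPS2 (chr16:1962052-1964860), another protein of the small subunit, had 529 and 562 reads in a 6-exon model of 935 bases, 4.96% and 3.98% of its gene.

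Counts of the other leading models lay well below these. RPL37, a protein of the large ribosomal subunit (chr5:40825262-40835335), had a pair among the 10, a 3-exon model of 346 bases with 231 and 229 reads and a 4-exon model of 375 bases with 185 and 152. IGHA2, the constant region of the immunoglobulin alpha 2 heavy chain (chr14:105583731-105588395), had a 5-exon model of 1608 bases with 408 and 214 reads. RPL23A and RPL12, both of the large subunit, had 161 and 165 reads and 128 and 167 reads. PTMA, which encodes the small acidic nuclear protein prothymosin alpha, had 199 and 132 reads in a 2-exon model of 258 bases. Genes of cytosolic ribosomal proteins together held 34.7% of the models' reads in replicate 1 and 42.5% in replicate 2. Ribosomal protein genes have many processed pseudogenes, and IGHA2, the HLA genes and the ANP32 genes have close relatives, so how the authors' assignment divided such reads is uncertain.

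Most prefix models were a minor product of their gene. The median share of gene reads was 1.09% in replicate 1 and 0.919% in replicate 2, and 222 models stayed below 1% in both libraries. Above 10% in both libraries stood 46 models, and above 50% in both stood 7, in genes of at most 54 reads per library. MKKS, a gene of McKusick-Kaufman and Bardet-Biedl syndromes that encodes a chaperonin-like protein (chr20:10401009-10434222), had a 3-exon model of 1748 bases with 33 of 49 and 36 of 54 reads. That is 67.3% (53.4 to 78.8%) and 66.7% (53.4 to 77.8%). By length the model ended exactly at the end of exon 3 of the 6 exons of MKKS-201. PIK3CD-AS2, a non-coding RNA antisense to PIK3CD, had 16 of 19 and 22 of 26 reads in a 2-exon model. HMSD had 14 of 21 and 22 of 38. The other members of these 7 were in GVINP1, DDTL, AP002748.3 and ZNF280D, with 4 to 13 reads per library. These genes were singled out after their values were seen.

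Among genes with 50 or more reads in each library, the ANP32 genes stood highest. ANP32A and ANP32B encode acidic leucine-rich nuclear phosphoproteins that bind histones. The 4-exon ANP32A model of 769 bases (gene at chr15:68778535-68820897) had 143 of 388 and 87 of 363 reads, a mean share of 30.4% ± 9.11 (SD, n = 2). The 4-exon ANP32B model of 694 bases (gene at chr9:97983361-98015943) had 122 of 462 and 111 of 514 reads, a mean of 24.0% ± 3.40. With 3 other prefix models of the gene, all of 2 to 5 exons, they came to 42.9% and 31.3% of ANP32B. After PKM, PCGF2, a Polycomb group RING finger protein, had 21 and 11 reads and shares of 30.4% and 12.9%. SMIM14, a small membrane protein, followed at 22.5% (56 reads) and 17.6% (64 reads). TMEM59 stood at 23.0% (23 reads) and 12.4% (13 reads), and PELP1, a nuclear receptor coregulator, at 18.8% (15 reads) and 14.7% (10 reads). At these counts the intervals were wide, such as 20.9 to 42.1% for PCGF2 in replicate 1.

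**Figure D2:**
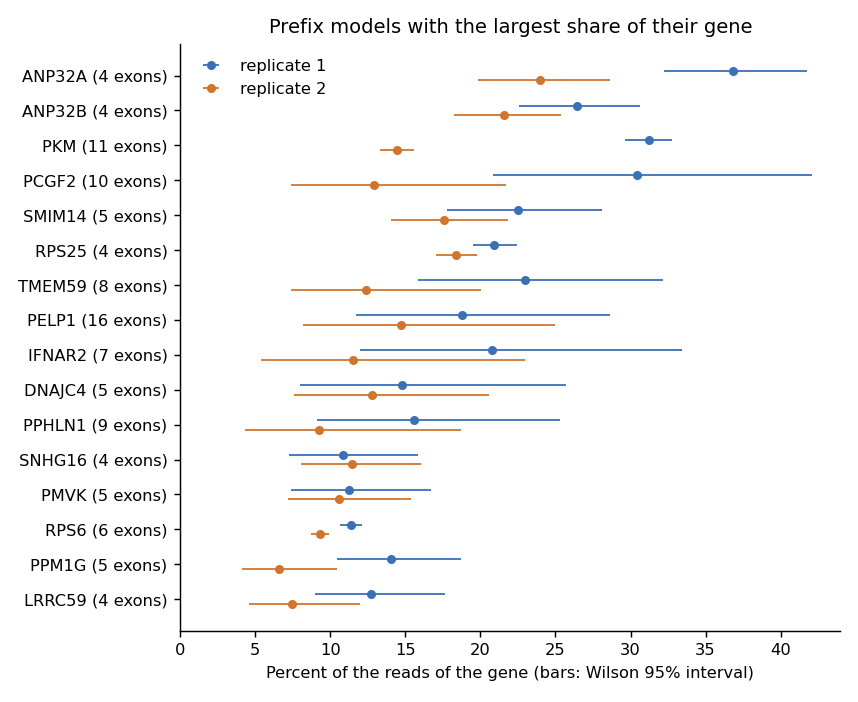
Share of the gene's reads (percent, points; bars are Wilson 95% intervals) in replicate 1 and replicate 2 for the 16 prefix models with the largest mean share among genes with 50 or more reads in each library. ANP32A, ANP32B and PKM stand at the top; the intervals of the libraries are apart for ANP32A, PKM and RPS6, touch for PPM1G and overlap for the other models shown.

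The 488 models had a median length of 914 bases (quartiles 516 and 1466, range 121 to 4470) and a median of 5 exons (range 2 to 26). Suffix models under the same minimum had a median of 1188 bases and 5 exons, and known models 1638 bases and 5 exons. For 392 of the prefix models the gene had a known model with 10 or more reads. Against the most abundant such model, 327 were shorter and 64 longer, 203 had less than 50% of its length, and the median was 48.4%. In 16 of the 64 the known model had only 2 or 3 exons, so the ratio is not always to a full-length transcript. Fewer exons than the most abundant known model were found in 333, the same number in 22 and more in 37. The corresponding median for suffix models was 59.1%.

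Lengths at the extremes came from unlike models. The longest, in TRIM14, a mitochondrial adaptor of antiviral signalling, had 6 exons and 4470 bases with 11 and 6 reads, within 16 bases of the 4454 of the annotated 6-exon transcript TRIM14-201. The next longest were in TMEM8A, with 12 exons, 4014 bases and 4 and 3 reads, and in ZBTB32, a zinc finger repressor of lymphocytes, with 2 exons, 3881 bases and 3 and 5 reads. At the short end of the ratio, the 2-exon EPN1 model of 539 bases, with 5 and 6 reads, had 3.32% of the length of EPN1-202 and matched the end of its exon 2 exactly. EPN1 encodes epsin 1, an endocytic adaptor. The RPL37 pair had 4.50% and 4.88% of RPL37-201, which is annotated at 7686 bases.

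By length, models placed inside exon n usually fell close to its end, but the choice of the nearest fitting transcript makes these distances small in part by construction. The median was 18 bases short of the end of exon n, with 92 of the 259 models within 5 bases, 137 within 20 and 179 within 50. They retained a median of 60% of the exons and 42.9% of the length of the transcript matched. On protein-coding transcripts there were 211 of them, of which 209 ended before the stop codon and 2 before the start codon, and the 209 kept a median of 54.2% of the coding bases. Since exon n is by construction not the last exon, an end before the stop codon is close to given. The RPL37 model of 346 bases kept 67.4% of the coding bases, the MKKS model 57.6%, and the NCL model of nucleolin 18.7% if taken against NCL-201. The 7-exon CALR model of calreticulin, an endoplasmic reticulum chaperone, kept 75.5%. Of the 259 models, 38, that of NCL among them, were also within 50 bases of an annotated transcript with the same number of exons. Suffix models, measured the same way from the annotated 3′ end, were inside the bounding exon in 65.3%, and 51.5% of those matched its edge exactly, against 28.6% of the prefix models placed inside.

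A group of 135 models (27.7%) was longer than exons 1 to n of every annotated transcript with more exons. The excess had a median of 467 bases (range 3 to 3091). In 38 of them the excess came within 50 bases of what an unspliced run from exon n to an annotated 3′ end would give, and 10 of these matched it to the base. Where a gene had several annotated 3′ ends the nearest was taken, which favours close matches. Exon n was the last but 1 in 29 of the 38. Of the rest, 67 had an excess that would end within the next intron and 30 one that would run past it. This breakdown was chosen after the lengths were seen.

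The most abundant of the 38 was a 5-exon RPS13 model of 1152 bases, with 48 and 67 reads. ACTB, beta-actin, had 34 and 42 reads in a 5-exon model of 1903 bases. RACK1, a scaffold protein on the ribosome, had 25 and 38 reads in a 7-exon model. IMPDH2, which makes guanine nucleotides, had 26 and 22 reads, FTL, the ferritin light chain, had 24 and 22, and a 4-exon model of HMGB1, a chromatin protein, had 23 and 22. The share of gene reads was far larger in SNHG7, a small nucleolar RNA host gene, with 17 of 34 and 27 of 52 reads, a mean of 51.0% ± 1.36 (SD, n = 2). In each of these an RNA with the last intron retained and one that ends early cannot be told apart by length alone.

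**Figure D3:**
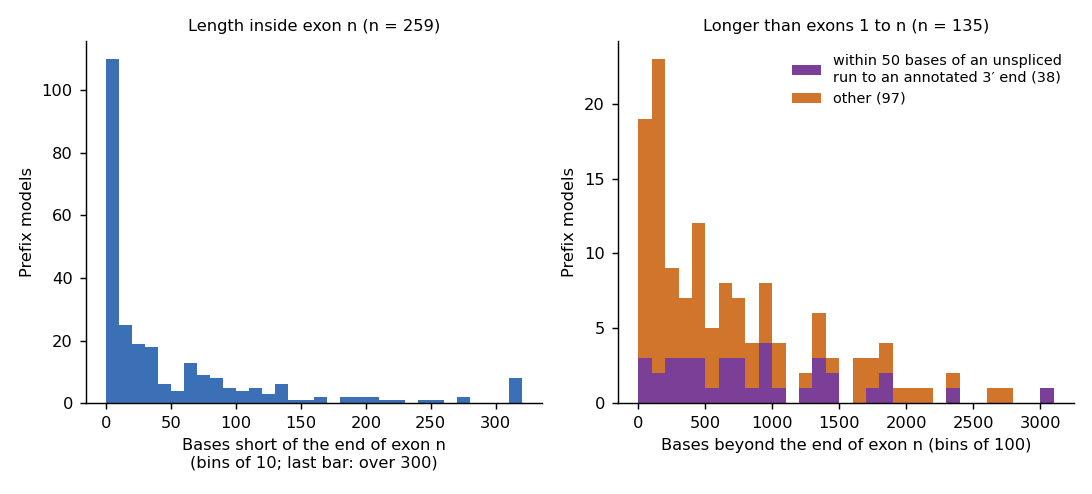
Left, bases by which the 259 models placed inside exon n fall short of its end (bins of 10 bases; the last bar holds all above 300). Right, bases beyond the end of exon n for the 135 longer models (bins of 100 bases), with the 38 that lie within 50 bases of an unspliced run to an annotated 3′ end in purple. On the left the first bin is by far the highest; on the right the purple models are spread over the whole range of excess.

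Another 46 models (9.43%), in 21 genes, had as many exons as the longest annotation of their gene or more, so no annotated transcript could bound their end, and 25 of them were in IGHA2. By exon number these 46 cannot be a prefix of any transcript annotated for their gene. The definition given at the start therefore does not hold for them against this annotation. They held 2346 reads in replicate 1 and 1796 in replicate 2. The remaining 48 models were too long for exons 1 to n of some transcripts and too short for others. The RPS25 model of 543 bases was among them, at 82 bases beyond the end of exon 4 of RPS25-206.

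Part of the models lay close in length to an annotated transcript with the same number of exons. There were 60 such models within 50 bases, in 50 genes, holding 37.5% of the models' reads in replicate 1 and 33.1% in replicate 2. They included 6 of the 10 most abundant. The RPS6 model of 826 bases stood beside RPS6-201 with 863, the PKM model of 2290 beside PKM-202 with 2318, and the RPS2 model of 935 beside RPS2-212 with 931. The RPL23A model of 631 stood beside RPL23A-205 with 639, the 4-exon RPL37 model of 375 beside RPL37-203 with 425, and the PTMA model of 258 beside PTMA-207 with 222. Of all prefix models this was 12.3%, and of suffix models 8.62%. Whether the junctions were also those of that transcript cannot be read from the table. For each model the transcript of nearest length was taken, which here too favours close matches.

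Whether a gene had a prefix model followed its read count. Of 6340 genes with 20 or more reads in each library, 282 (4.45%) had at least 1. By the lower of the gene's read counts, the share was 1.08% of genes between 20 and 50 reads, 2.62% between 50 and 100, 6.15% between 100 and 500, 25.4% between 500 and 2000, and 51.3% (60 of 117 genes) from 2000 up. Protein-coding genes held 434 of the models, and 4 immunoglobulin constant region genes held 36. The gene groups that follow are given as counts with no test, since most hold genes of high read count.

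Of 82 measured cytosolic ribosomal protein genes, 36 had a prefix model, 74 models in all, from both subunits. Of 7 measured genes in a list of translation elongation genes that also holds TPT1, 6 had one, with 25 models. EEF2, the factor that moves the ribosome along the messenger RNA, led with 11, and TPT1 had 2. Among 17 glycolysis enzymes 6 had one, with 21 models. GAPDH had 6 of them, the most abundant with 8 exons, 821 bases and 27 and 72 reads. Among 28 splicing genes of the SR and HNRNP families 5 had one, with 12 models, and HNRNPA2B1, a messenger RNA binding protein, accounted for 6. Its leading pair had 5 exons with 14 and 12 reads and 4 exons with 13 and 11 reads, and both matched the exon end exactly. No gene of the SR family was among the 5.

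Of 19 measured genes of antigen presentation, 11 had a prefix model, with 21 models. CD74, the invariant chain of the class II complex, had a 7-exon model of 1611 bases with 15 and 19 reads, only 0.142% and 0.155% of the gene. HLA-DRA, the class II alpha chain, had a 3-exon model of 477 bases with 11 and 22 reads. Of 19 measured B cell genes 6 had one, with 10 models, and these included CD74, HLA-DRA, MS4A1, CD79A and CD37. MS4A1, the CD20 antigen, had 5 and 4 reads in a 5-exon model of 574 bases.

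Of 7 measured genes known for early polyadenylation, 2 had a prefix model (28.6%, against 4.45% of all measured genes), IGHG1 and IGHM, both immunoglobulin heavy chains. The 7 genes were not matched to the others in read count, so these percentages do not compare like genes. The 7-exon IGHG1 model of 1632 bases counted 38 and 9 reads, 13.1% and 4.64% of its gene. The 5-exon IGHM model of 1509 bases counted 7 and 25, or 1.95% and 4.72%. Neither was placed inside an annotated exon: IGHG1 has at most 6 annotated exons, and the IGHM model was 93 bases longer than exons 1 to 5 of IGHM-202. Both models may differ from the annotation at the 5′ end as well, so the extra exon or bases are not shown to lie at the 3′ end. Of 20 measured factors that cut and polyadenylate RNA or protect it from early cutting, 2 had one. SNRNP70, the U1 small nuclear ribonucleoprotein, whose particle also guards transcripts from early polyadenylation, had a 9-exon model with 8 and 7 reads and an 8-exon model with 12 and 4, the latter ending exactly at the end of exon 8. SYMPK, the scaffold of the cleavage complex, had a 26-exon model with 4 and 3 reads.

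Some genes had several prefix models. A single prefix model was found in 222 genes, 2 or more in 80 and 4 or more in 19. IGHA2 had 32, of 4 to 6 exons, against at most 5 exons in the annotation. Together they held 1102 and 728 reads, 25.8% and 12.3% of the gene, and 11.6% and 7.55% of all reads of the 488 models. The annotated IGHA2-201 has 3 exons and 1071 bases, and IGHA2-202 has 5 exons and 1320 bases. The leading models had 5 exons with 1608 or 1592 bases or 6 exons with 1633 bases. For 25 of the 32 the end could not be bounded, and models with more exons or bases than the annotation may differ from it at the 5′ end as well, so their different lengths are not shown to be different 3′ ends.

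EEF2 (chr19:3976056-3985469) had 11 models that end after 3 to 15 of the 15 exons of EEF2-201. The 4-exon model of 695 bases had 28 and 30 reads and the 5-exon model of 1068 bases 24 and 24. The models of 4, 9, 11 and 14 exons were each 6 bases shorter than that number of exons of EEF2-201, and the 6-exon model was 2 bases shorter. Length alone does not say whether these bases were missing at the 3′ end or the 5′ end. The 15-exon model, with 26 and 18 reads, had 3162 bases against the 3164 of EEF2-201, so by length it lacked only 2 bases of the annotated transcript. RPS25 had 6 models, 4 of them with 4 exons and lengths of 537, 540, 543 and 546 bases, 3 bases apart. Of these the 543-base model held 628 and 581 reads and each other at most 17.

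NOP53, a ribosome biogenesis factor of the nucleolus (the gene holds 13 exons in NOP53-201), also had 6 models. The 12-exon model of 1439 bases had 31 and 49 reads and ended 29 bases before the end of exon 12. The 7-exon and 5-exon models, with 20 and 23 and with 8 and 8 reads, ended exactly at the end of an annotated exon. The 4-exon model of 1439 bases, with 5 and 6 reads, was 803 bases longer than 4 exons. GAPDH and HNRNPA2B1 had 6 models as well.

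**Figure D4:**
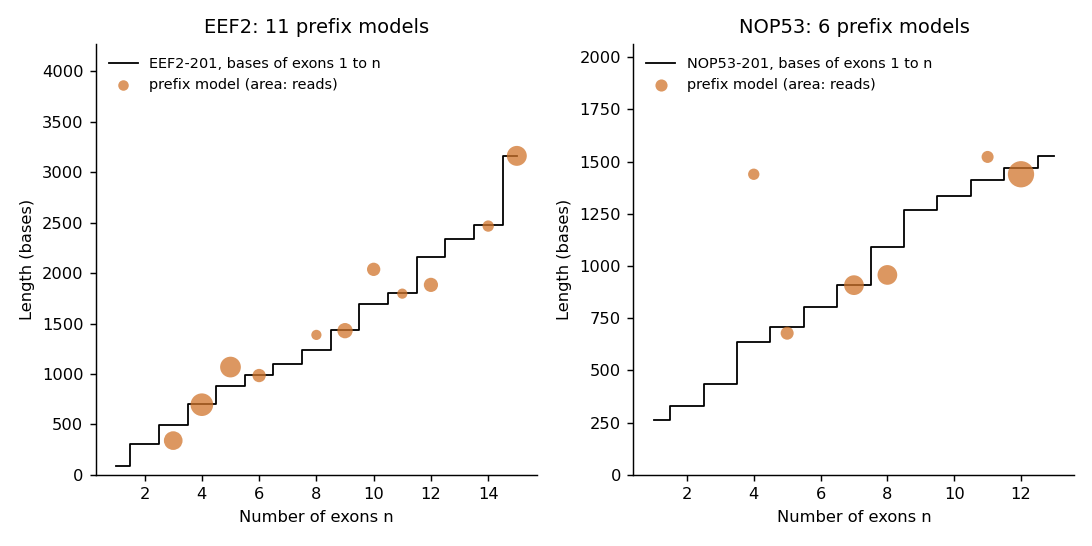
Length in bases (vertical) of each prefix model of EEF2 and NOP53 against its number of exons (horizontal); point area grows with its reads in both libraries, and the stepped line gives the summed length of exons 1 to n of EEF2-201 and NOP53-201. Most points sit on or below the line, and a few, such as the 10-exon EEF2 model and the 4-exon NOP53 model, lie well above it.

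The libraries were then compared with each other. Such a test compares the reads of 2 libraries, not conditions, and it takes no account of variation beyond counting. The choice of the models set the same minimum in both libraries and did not use the difference between them, but it limits how far apart low counts can lie. Models with 10 or more reads in the 2 libraries together were tested, 364 of the 488. By Fisher's exact test on the share of gene reads with Benjamini-Hochberg adjustment over all 25053 models tested, 62 prefix models were called at 0.05, 34 higher and 28 lower in replicate 2. Of all models tested 17.6% were called, 9.53% higher and 8.02% lower, and of those with 3 or more reads in each library 16.7%, 9.02% higher and 7.65% lower. The share of prefix models called, 17.0%, was near that background and is no result about them. By the exact binomial test on counts, with the library totals as the scale, 61 were called, 35 higher and 26 lower, against 15.6% of all 25381 models tested (8.23% higher, 7.34% lower) and 14.5% of those with 3 or more reads in each library (7.6% higher, 6.85% lower). The median difference in share of the 364 was 0.0250 percentage points, with 191 higher in replicate 2. Beside this, suffix models had a median of 1.26 percentage points and known models had -6.07 percentage points, and the part of that shift in the results for prefix models was not tested.

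Ribosomal protein genes and IGHA2 lay on opposite sides. Of 71 tested prefix models of cytosolic ribosomal protein genes, 17 in 12 genes were called higher in replicate 2. Another 2, in RPS6 and RPS2, were called lower. Among all tested models with 3 or more reads in each library, 9.02% were called higher and 7.65% lower. A higher share in replicate 2, called or not, was found in 60 of the 71, with a median difference of 0.159 percentage points. Over all models tested it was found in 13792 of 25053, with a median difference of 0.318 percentage points. The largest called rise among the ribosomal protein models was in RPLP1, a stalk protein of the large subunit. Its 3-exon model of 395 bases went from 17 to 64 reads and from 0.249% to 0.833% (adjusted p = 4.0e-05, Fisher's exact test). The models of RPS6 and RPS2 that fell were the most abundant ones of their gene. RPS6 fell by 2.05 percentage points (adjusted p = 4.1e-04) and RPS2 fell by 0.982 percentage points (adjusted p = 0.0028). Of 22 tested models of the elongation list, which includes TPT1, 6 were higher and 0 lower. Of 28 tested IGHA2 models 11 were lower and 1 was higher, with the 1608-base model going from 9.57% to 3.60% (adjusted p = 1.9e-32). The 1 that was higher had 5 exons and 1302 bases, 18 bases short of IGHA2-202, and went from 3 to 20 reads. Models of IGHA2 share the read total of 1 gene, so their falls are not separate observations. Without IGHA2, 17 prefix models rather than 28 were lower.

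In the other lists the calls are given as counts, to be read against the calls among all tested models with 3 or more reads in each library. Of those models 16.7% were called, 9.02% higher and 7.65% lower in replicate 2. Of 18 tested models of antigen presentation genes 3 were higher and 0 lower, and of 7 of B cell genes 2 were higher and 0 lower. Both lists hold CD74 and HLA-DRA, so their counts are not separate observations. In both, a 5-exon CD74 model went from 4 to 42 reads (adjusted p = 1.5e-06, Fisher's exact test). Of 18 glycolysis models 2 were higher and 1 lower. Of 3 tested models of genes known for early polyadenylation, 1 was lower, in IGHG1 (adjusted p = 0.014). By Fisher's exact test 0 of the 8 splicing gene models (lowest adjusted p = 0.65) and 0 of the 2 models of 3′ end factors (0.42) were called, with 0 at an unadjusted p under 0.05 and 0 called by the binomial test on counts.

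Among the called models, the 3 largest falls in share were in PKM, TRIM14 and ANP32A. PKM went from 1052 of 3372 to 541 of 3749 reads, from 31.2% (29.7 to 32.8%) to 14.4% (13.3 to 15.6%), and its share fell by 16.8 percentage points (adjusted p = 3.5e-62, Fisher's exact test). TRIM14 went from 11 of 48 to 6 of 94 reads and fell by 16.5 percentage points (adjusted p = 0.039). That call was lost with no minimum on reads (adjusted p = 0.34) and without genomic models among the gene's reads (adjusted p = 0.058). ANP32A fell by 12.9 percentage points (adjusted p = 0.0019), and this call was lost without genomic models (adjusted p = 0.17). The RPS25 model, at 20.9% and 18.4%, did not pass the test (adjusted p = 0.064).

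Among the called models, the 3 largest rises were in BST2, SLC25A6 and RPLP1. Larger differences in both directions occurred among models that did not pass the test, such as PCGF2, whose share stood at 30.4% and 12.9% (adjusted p = 0.053, Fisher's exact test). BST2, tetherin, an interferon-induced protein that holds budding viruses at the cell surface, went from 5 of 600 to 19 of 631 reads in a 4-exon model of 1254 bases, a rise of 2.18 percentage points (adjusted p = 0.040, Fisher's exact test) that was not called with no minimum on reads (adjusted p = 0.35). SLC25A6, a mitochondrial ADP/ATP carrier, went from 4 to 32 reads in a 2-exon model of 692 bases, from 0.230% to 1.54% (adjusted p = 2.4e-04).

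**Figure D5:**
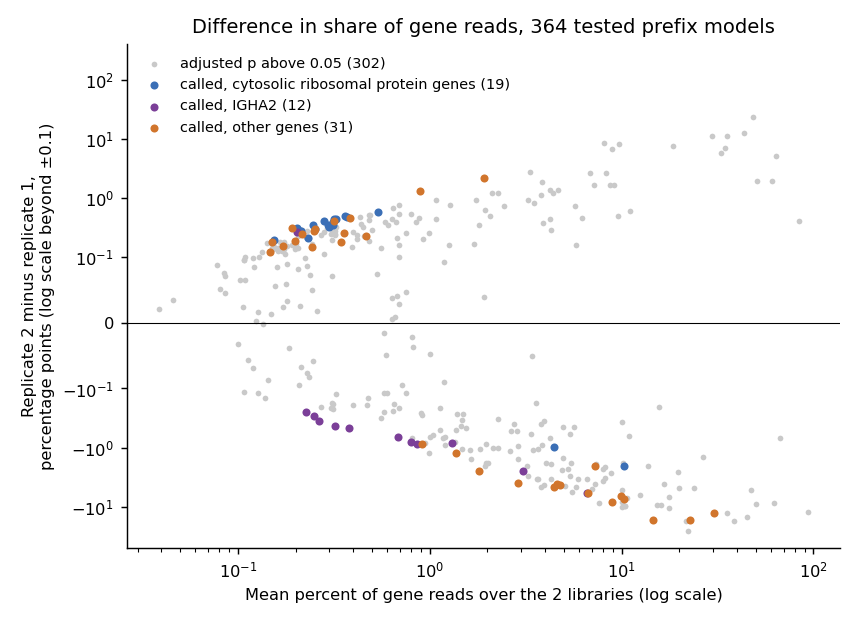
Difference in share of gene reads between the libraries (replicate 2 minus replicate 1, percentage points, log scale beyond 0.1 in either direction) against the mean share (percent, log scale) for the 364 tested prefix models. Called models of ribosomal protein genes (19) sit mainly above 0 at mean shares under 1%, and those of IGHA2 (12) mainly below 0.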

How the data were processed

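Direct RNA of 2 replicate libraries of GM12878 was counted by the authors per transcript model; the deposited counts are whole numbers with no normalization, and minimap2 and hg38 are named in the submitters' processing notes. TALON is known from the name of the deposited table; filters, versions and how model ends were set are not given in the sources used here. All 23533 known models matched GENCODE release 29 in exon number and length, so its GRCh38 coordinates and transcript sequences were used. The members and gene lists were chosen with earlier results of these data known.

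Gene reads are sums over all models of a gene. Intervals are Wilson 95% intervals (scipy 1.17.1). Library differences were tested per model by Fisher's exact test (share) and the exact binomial test (count), with Benjamini-Hochberg adjustment over all models with 10 or more reads. Both tests were also run on simulated counts that held counting error only, so that run cannot bear on other variation between libraries. Size factors of edgeR 4.0.16 and DESeq2 1.42.0 served as other scalings. Against the library totals, the chi-square of a member's 2 counts averaged 3.59, a mean that a few abundant members can raise; the columns are not copies of each other. P-values set the difference between these libraries against counting error only and do not measure a spread between libraries. That difference may be technical. In genes of 50 or more reads, named members are the 8 with the largest mean share; over all, they are the 10 with the highest lower count, the 4 genes with most members (ties by reads), the 3 largest called rises and falls, 2 per list, the 3 longest and the 3 of smallest length ratio; others were chosen after values were seen. Some named items are not reported here.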

Additional observations from a re-analysis of the deposited data

How the results depend on the processing

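With a minimum of 2, 5 or 10 reads in each library, 793, 257 or 102 prefix models were left, and on the reads of 1 library alone 882 to 917 had 3 or more. Their percent of all reads was 0.733, 0.583 and 0.478 under those minimums and 0.769 with genomic models left out of the total. The median share of gene reads was 1.24% over known and ISM reads only and 1.41% with a minimum of 10. With no minimum for the test, Fisher's exact test called 28 models (13 higher, 15 lower) and the binomial test 26 (15 higher, 11 lower); the cause was not tested, beside the larger number of models tested. Leaving out IGHA2, an alternative chosen after seeing the data, left 17 lower. TMM and DESeq2 scaling moved no count of calls by over 1.5 times. Median length was 38.1% of the longest known model, 43.6% with a minimum of 5 reads and 46.4 to 48.2% on 1 library. Against the most abundant known model only, 144 models were inside exon n and 82 were neither inside nor longer, and with a tolerance of 50 bases 21 were neither. With limits chosen after seeing the data, 23 models were within 10 bases of an unspliced run, and 19 and 99 were within 10 and 100 bases of a transcript with the same exon number. Genes with a prefix model were 7.09% and 10.9% of those with 50 and 100 reads, and 2.26% with a minimum of 5 reads per model. Depth limits the rest: 3 reads are 2.21 and 1.99 CPM. No paired analysis was possible because the libraries form 1 group.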
